A study of Mus musculus with 8 samples.

Results

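The globin genes examined here are the 9 rows of the expression table named Hba-x, Hba-a1, Hba-a2, Hbb-y, Hbb-bh1, Hbb-b1, Hbb-b2, Hbb-bs and Hbb-bt, of 20701 gene symbols in all. Each symbol was represented by its transcript with the highest mean count, and all 9 genes passed the filter on low counts. The libraries were made from polyadenylated RNA from the right ventricle with the outflow tract (OFT/RV), each taken from 1 C57BL/6 mouse embryo at stage E10.5. There were 4 control embryos (CTRL), labelled wild type, and 4 embryos labelled as Isl1 hypomorphs (Isl1_hypo). The study writes their genotype as f;neo/f;neo, an allele pair of the whole embryo that lowers Isl1, which encodes a LIM-homeodomain transcription factor. No Cre, transgene or treatment was named for either group, and no source used here says whether blood was rinsed from the tissue. Isl1 itself stood at 47.2 ± 13.3 CPM (counts scaled to a common library depth) in CTRL and 9.67 ± 2.83 in Isl1_hypo (mean ± SD, n = 4 and 4), and it fell by 2.29 on the log2 scale (SE 0.26, adjusted p = 0.0077, edgeR quasi-likelihood test).

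Hemoglobin is a tetramer of alpha-like and beta-like globin chains, and each kind is made from a gene cluster whose members are used in turn during development. The first red cells of the mouse, the primitive erythrocytes, form in the yolk sac and carry the embryonic chains: zeta from Hba-x, epsilon-y from Hbb-y and beta-h1 from Hbb-bh1. They also make adult alpha chains. Definitive red cells, which arise later in the fetal liver, use the adult alpha genes Hba-a1 and Hba-a2 with the adult beta genes. The adult beta genes are named Hbb-b1 and Hbb-b2 in one haplotype and Hbb-bs and Hbb-bt in the other, which C57BL/6 mice carry. Heart muscle does not make these chains, and circulating red cells fill the heart at this stage. In a bulk library, fewer cells of a type and less RNA per cell cannot be told apart.

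The alpha-like genes lie on chromosome 11 and the beta-like genes on chromosome 7. In the GENCODE annotation of the mm9 build, 7 of the 9 symbols had a gene of that name. Hba-x spans chr11:32176400-32178116, Hba-a1 chr11:32183511-32184465 and Hba-a2 chr11:32196489-32197301, all on the plus strand. On the minus strand of chromosome 7, Hbb-y spans chr7:111000259-111001754, Hbb-bh1 chr7:110990150-110991678, Hbb-b1 chr7:110975048-110976610 and Hbb-b2 chr7:110961038-110962510. The first 60 coding bases of each distinct gene in that annotation are given because they show which members a short read can tell apart. Capitals mark bases that differ from Hba-a1 in the alpha-like genes and from Hbb-b1 in the beta-like genes.
Hba-x: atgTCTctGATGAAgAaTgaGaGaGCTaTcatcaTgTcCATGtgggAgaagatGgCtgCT
Hba-a1: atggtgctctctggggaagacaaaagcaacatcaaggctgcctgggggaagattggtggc
Hbb-y: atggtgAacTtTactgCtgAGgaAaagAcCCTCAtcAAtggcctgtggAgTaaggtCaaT
Hbb-bh1: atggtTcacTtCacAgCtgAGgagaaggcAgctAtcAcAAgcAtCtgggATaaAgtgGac
Hbb-b1: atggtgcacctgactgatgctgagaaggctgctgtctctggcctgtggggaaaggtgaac

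The embryonic genes were distinct from their adult partners along the whole coding sequence. Hba-x and Hba-a1 were identical at 62.0% of 429 coding bases, Hbb-y and Hbb-b1 at 74.3% of 444, and Hbb-y and Hbb-bh1 at 76.3%. None of the 50-base windows of Hba-x, Hbb-y or Hbb-bh1 occurred in the annotated transcripts of another gene. By contrast, Hba-a1 and Hba-a2 differed at 1 of 429 coding bases and Hbb-b1 and Hbb-b2 at 1 of 444. For the Hba-a genes 87.1% of 50-base windows were shared, and for the Hbb-b genes 92.9% were. In the counts, Hba-a1 and Hba-a2 were equal in 8 of 8 libraries. The beta rows with nearly equal counts were not Hbb-b1 and Hbb-b2, which held 235 and 41 counts in CTRL 2 and 725 and 1844 in CTRL 4. They were Hbb-bs with Hbb-b1, which differed by at most 1.83%, and Hbb-bt with Hbb-b2, which differed by at most 1.91%. The sequences of Hbb-bs and Hbb-bt were not compared with these, as the annotation has no gene of either name. The 3 pairs of rows with equal or nearly equal counts were taken as repeats of 1 measurement, and each is counted once below, by Hba-a1, Hbb-bs and Hbb-bt. How reads that fit more than 1 place were counted is not given in the sources used here, so the adult levels may be too low or assigned to the wrong partner. For the embryonic genes only the coding sequence was compared, and only with annotated transcripts.

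Promoter sequence from RefSeq was at hand for 6 of the 9 genes and is shown for 5, because the members varied together across embryos in the data below. Each run holds the 120 bases before the RefSeq transcript start, read 5′ to 3′ on the gene's strand and placed on mm9 by exact match. Capitals mark 4 motifs: CACCC, known to be bound by Krüppel-like factors, then CCAAT, known to be bound by NF-Y, then TATAA, known to be bound by the TATA-binding protein, and GATAA, known to be bound by GATA factors. In the Hbb-bt run ATTGG, the reverse complement of the second motif, is in capitals too. The Hba-x run lies at chr11:32176480-32176599, the Hbb-y run at chr7:111001722-111001841, the Hbb-bs run at chr7:110976443-110976562 and the Hbb-bt run at chr7:110962438-110962557. The Hba-a1 run occurs at 2 places, chr11:32183552-32183671 and chr11:32196369-32196488, by Hba-a1 and Hba-a2. RefSeq and GENCODE place some starts differently: the Hba-a2 place ends just before the GENCODE gene, while the other runs lie wholly or partly inside the GENCODE spans given above.
Hba-x: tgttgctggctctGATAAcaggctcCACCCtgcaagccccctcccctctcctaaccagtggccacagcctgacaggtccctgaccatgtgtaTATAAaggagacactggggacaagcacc
Hbb-y: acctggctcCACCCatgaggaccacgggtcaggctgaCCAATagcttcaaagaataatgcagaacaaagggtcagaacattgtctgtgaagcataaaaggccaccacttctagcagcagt
Hba-a1: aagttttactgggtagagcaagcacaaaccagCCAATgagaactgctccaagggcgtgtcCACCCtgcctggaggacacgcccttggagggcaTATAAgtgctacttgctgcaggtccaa
Hbb-bs: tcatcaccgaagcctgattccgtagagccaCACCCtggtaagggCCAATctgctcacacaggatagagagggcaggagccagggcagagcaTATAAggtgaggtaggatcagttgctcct
Hbb-bt: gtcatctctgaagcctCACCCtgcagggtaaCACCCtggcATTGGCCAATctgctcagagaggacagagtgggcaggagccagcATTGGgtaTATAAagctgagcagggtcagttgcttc

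Searching both strands, CACCC was found in 5 of 5 distinct globin promoters (the Hba-a2 window is that of Hba-a1 shifted by a few bases and is not counted again), against 31.7% of 32851 RefSeq promoter windows of the same length. CCAAT was found in 4 of 5, against 21.3%, and was missing from the Hba-x window. TATAA was found in 4 of 5, against 11.8%, and was missing from the Hbb-y window. GATAA was found in 1 of 5, the Hba-x window, against 3449 of the 32851 windows. In Hbb-bt a forward and a reverse copy of the CCAAT letters stood end to end, and no motif overlapped another. These matches describe the letters only, and binding was not measured.

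Among the embryonic alpha-like transcripts, Hba-x (zeta) stood at 524, 732, 1242 and 3055 RPKM, the authors' unit of reads scaled for transcript length and library depth, in CTRL 1 to 4. It stood at 4130, 2793, 8583 and 4085 RPKM in Isl1_hypo 1 to 4. CTRL 4 lay above Isl1_hypo 2, so the groups overlapped, and the other 3 controls lay below every hypomorph. The log2 fold change of Hba-x was 1.85 (SE 0.51), with an adjusted p of 0.201 in the edgeR quasi-likelihood test over 13769 genes, which does not pass 0.05. In RPKM rank among all genes Hba-x was 39th, 34th, 18th and 7th in CTRL 1 to 4, and 5th, 8th, 2nd and 5th in Isl1_hypo 1 to 4.

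Of the embryonic beta-like transcripts, Hbb-y (epsilon-y) was the most abundant globin in 7 of 8 libraries. Its level was 1019, 1190, 2078 and 5342 RPKM in CTRL 1 to 4 and 9389, 5639, 8509 and 6517 RPKM in Isl1_hypo 1 to 4. The groups did not overlap, although CTRL 4 came close to Isl1_hypo 2. On the log2 scale the groups differed by 1.66 (SE 0.45), and the edgeR adjusted p of 0.191 does not pass 0.05. Hbb-y was the gene with the highest RPKM of all in Isl1_hypo 1 and 18th in CTRL 1.

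Hbb-bh1 (beta-h1) was lower than Hba-x in 8 of 8 libraries. It stood at 395, 604, 1049 and 2784 RPKM in CTRL 1 to 4 and at 4081, 2636, 5294 and 3672 RPKM in Isl1_hypo 1 to 4. As with Hba-x, CTRL 4 exceeded Isl1_hypo 2 and the remaining controls did not reach the hypomorphs. On the log2 scale the groups differed by 1.72 (SE 0.50), and the edgeR adjusted p of 0.216 does not pass 0.05.

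The adult alpha transcript Hba-a1, whose row also stands for Hba-a2, was the most abundant adult globin in 8 of 8 libraries. It reached 64.1, 97.6, 142 and 382 RPKM in CTRL 1 to 4 and 565, 369, 1249 and 566 RPKM in Isl1_hypo 1 to 4. CTRL 4 was again the only control inside the hypomorph range. On the log2 scale the groups differed by 2.03 (SE 0.53), and the edgeR adjusted p of 0.177 does not pass 0.05.

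The adult beta transcripts were far lower. Hbb-bs stood at 6.94, 5.60, 9.75 and 15.2 RPKM in CTRL 1 to 4 and at 29.2, 22.6, 20.6 and 17.99 RPKM in Isl1_hypo 1 to 4, with no overlap. It differed by 1.29 on the log2 scale (SE 0.29, adjusted p = 0.106, edgeR), and that of Hbb-b1, with nearly the same counts, was 1.28. The second adult beta transcript, Hbb-bt, stood at 4.22, 0.988, 5.07 and 38.7 RPKM in CTRL 1 to 4 and at 8.34, 23.0, 38.0 and 22.7 RPKM in Isl1_hypo 1 to 4. Here CTRL 4 was the highest of all 8 libraries, so the groups overlapped, while the other controls lay below every hypomorph. The log2 difference was 0.94 (SE 0.84, edgeR adjusted p = 0.683), and without CTRL 4 it was 2.79 (adjusted p = 0.103).

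**Figure D1:**
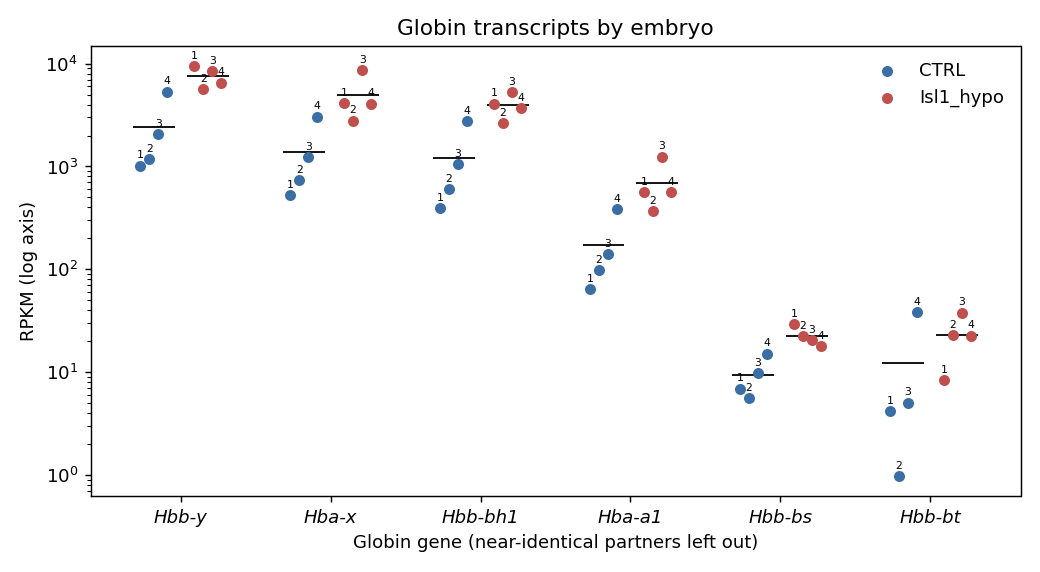
RPKM of the 6 separately counted globin genes (log axis) in each CTRL (blue) and Isl1_hypo (red) embryo, with the replicate number at each point and the group mean as a line. Only Hbb-y and Hbb-bs show groups that do not overlap, and CTRL 4 lies inside or near the Isl1_hypo range for each gene.

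The order of the levels was nearly fixed within embryos. Hba-x exceeded Hbb-bh1, Hbb-bh1 exceeded Hba-a1 and Hba-a1 exceeded Hbb-bs in 8 of 8 libraries each. Hbb-y exceeded Hba-x in 7 of 8, and in Isl1_hypo 3 the order was turned, with 8509 RPKM of Hbb-y and 8583 of Hba-x. Hbb-bs exceeded Hbb-bt in 4 of 8, so these neighbours had no order. Between embryos the spread was wide: the highest CTRL library exceeded the lowest 5.24-fold for Hbb-y, 5.83-fold for Hba-x, 7.05-fold for Hbb-bh1 and 5.97-fold for Hba-a1. In Isl1_hypo the same ratio was 1.67 for Hbb-y, 3.07 for Hba-x, 2.01 for Hbb-bh1 and 3.38 for Hba-a1. The means of neighbouring embryonic genes were thus closer than the spread of either, and their order is read within libraries only.

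Across all genes the test called 0 of the 9 globin rows at an adjusted p under 0.05, where 0.145% of 13769 genes were called higher and 0.123% lower (edgeR quasi-likelihood test, Benjamini-Hochberg). At an unadjusted p under 0.05, 7 of the 9 rows were higher and 0 lower, against 5.69 and 6.17% of all genes. All 9 rows had a log2 fold change above 0, against 50.9% of all genes, and 7 had a value of 1 or more, against 2.51%. The median of the 9 rows was 1.66, against 0.006 over all genes. Groups did not overlap for 3 of the 9 rows (Hbb-y and the shared pair Hbb-bs and Hbb-b1), against 4.06% of all genes higher and 4.44% lower. As the rows of a pair repeat each other, these 9 rows hold 6 measurements, and all of them come from the same embryos. DESeq2 called 2 rows, Hbb-bs (adjusted p = 0.00161) and Hbb-b1 (0.00165), where it called 1.07% of genes higher.

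In edgeR the calls changed with 1 control embryo. Without CTRL 4, edgeR called 7 of the 9 rows higher, where 0.223% of 13873 genes were called higher. Then the log2 fold change was 2.58 for Hba-x (adjusted p = 0.0395), 2.42 for Hbb-y (0.0221), 2.79 for Hba-a1 (0.0322) and 1.62 for Hbb-bs (0.0289). Hbb-bh1 was also called in that fit (adjusted p = 0.0231), and the uncalled rows were Hbb-bt and Hbb-b2. Nothing in the labels sets CTRL 4 apart, and its depth of 46678973 counts was the highest of the 8 libraries.

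The mix of chains is given next, first as the share of embryonic chains, which lay near its upper limit in every library. For the mix, counts were divided by transcript length and the embryonic genes were set against the adult ones. The embryonic chains made up 96.3, 96.0, 96.5 and 96.2% of globin in CTRL 1 to 4 and 96.7, 96.4, 94.5 and 95.9% in Isl1_hypo 1 to 4. The means were 96.3 ± 0.205% and 95.9 ± 0.977% (SD, n = 4 each), and Isl1_hypo 3 was the lowest library. The difference in log2 odds was -0.13 (exact 2-sided permutation test, p = 0.657, adjusted p = 0.767 over 7 values). Without Isl1_hypo 3 it was 0.029, so the sign of this small difference rested on that library.

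**Figure D2:**
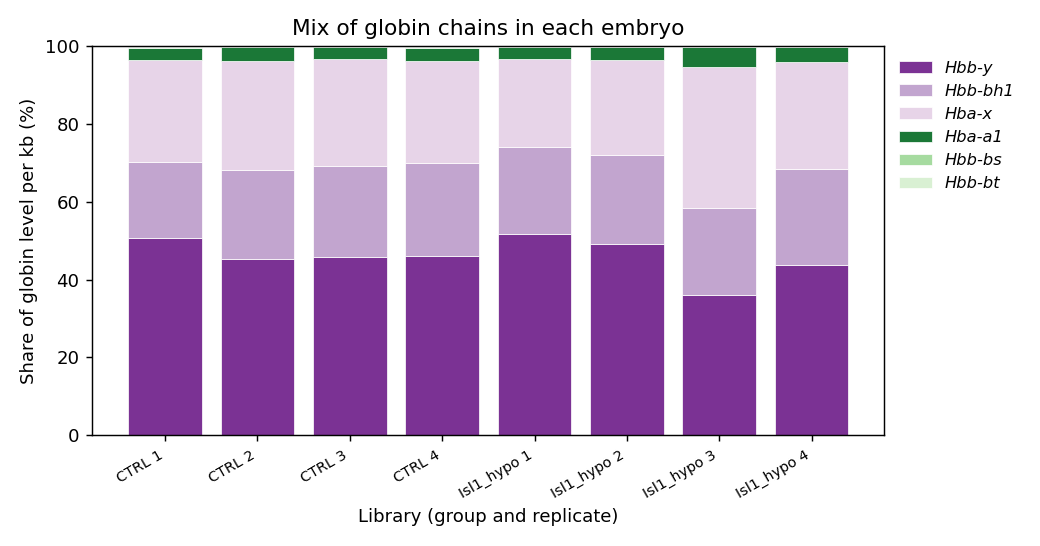
Share of the summed globin level per kilobase (percent) taken by each of 6 globin genes in each library, embryonic genes in purple and adult genes in green. The embryonic genes fill between 94.5 and 96.7% of every bar, and Isl1_hypo 3 has the smallest Hbb-y segment (35.9%) and the widest Hba-x segment (36.2%).

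Within the alpha-like chains, the zeta share was slightly lower in the hypomorphs. Hba-x made up 89.1, 88.2, 89.7 and 88.9% of alpha-like transcripts in CTRL 1 to 4 and 88.0, 88.3, 87.3 and 87.8% in Isl1_hypo 1 to 4. The means were 89.0 ± 0.624% and 87.9 ± 0.424%, and the groups overlapped at CTRL 2 and Isl1_hypo 2. The difference in log2 odds was -0.16 (exact permutation test, p = 0.0571, adjusted p = 0.133), which does not pass 0.05. The smallest p that 70 splits of 4 against 4 allow is 0.0286, and a lone value at that p would be adjusted to 0.2 over 7 values, so these tests could pass only together. As counts, the Wilson 95% interval of the Hba-a1 share of alpha-like counts ran from 9.77 to 10.7% in CTRL 1 and from 11.8 to 12.0% in Isl1_hypo 3. In CTRL 2 (10.7 to 11.4%) and Isl1_hypo 2 (10.75 to 11.2%) the intervals overlapped. Intervals of this kind cover counting error only, as reads without molecular identifiers are not independent molecules.

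Within the beta-like chains the embryonic genes left almost no room for the adult ones. The adult share was 0.783, 0.366, 0.472 and 0.659% in CTRL 1 to 4 and 0.278, 0.548, 0.423 and 0.398% in Isl1_hypo 1 to 4. The embryonic share averaged 99.4 ± 0.187% in CTRL and 99.6 ± 0.111% in Isl1_hypo, a log2 odds difference of 0.45 (exact permutation test, p = 0.2, adjusted p = 0.35). This difference was 0.28 both without CTRL 1 and without Isl1_hypo 1. The adult share of alpha-like chains was larger, at 10.3 to 11.8% in CTRL and 11.7 to 12.7% in Isl1_hypo. In each of the 8 embryos adult alpha thus took a larger share of its kind than adult beta did.

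Of the embryonic beta-like genes, beta-h1 was present at less than the level of epsilon-y everywhere. The ratio of Hbb-bh1 to Hbb-y was 0.387, 0.508, 0.505 and 0.521 in CTRL 1 to 4 and 0.435, 0.467, 0.622 and 0.563 in Isl1_hypo 1 to 4. CTRL 1 had the lowest ratio and Isl1_hypo 3 the highest. The log2 difference between the groups was 0.12 (exact permutation test, p = 0.457, adjusted p = 0.64). It was 0.015 without CTRL 1, 0.026 without Isl1_hypo 3, 0.074 without Isl1_hypo 4 and 0.20 without Isl1_hypo 1, so this small value rested on single libraries.

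In the balance of alpha-like to beta-like transcripts 1 library stood away. The ratio was 0.413, 0.461, 0.440 and 0.420 in CTRL 1 to 4 and 0.348, 0.380, 0.709 and 0.455 in Isl1_hypo 1 to 4. The means were 0.434 ± 0.0216 in CTRL and 0.473 ± 0.164 in Isl1_hypo (SD, n = 4 each), with Isl1_hypo 3 above all other libraries. The log2 difference was 0.07 (exact permutation test, p = 0.914, adjusted p = 0.914), and without Isl1_hypo 3 it was -0.15. The ratio of Hba-x to Hbb-y showed the same library, at 1.009 in Isl1_hypo 3 against 0.440 to 0.627 in the other 7. In Isl1_hypo 3 long transcripts had lower values than in the other libraries (slope -0.108 on the log2 scale for each doubling of length, against -0.028 to 0.119 in the others). Isl1_hypo 3 also had the fewest genes detected (14305, against 14935 to 15396 in the others). Its rank correlations with the other hypomorphs, across genes, were 0.967 to 0.977, against 0.982 to 0.989 for the other pairs of libraries within a group. The main transcripts of the ratio are close in length, with 595 bases for Hba-x, 554 for Hba-a1, 614 for Hbb-y and 605 for Hbb-bh1. The part of length or library quality in the ratio was not tested.

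**Figure D3:**
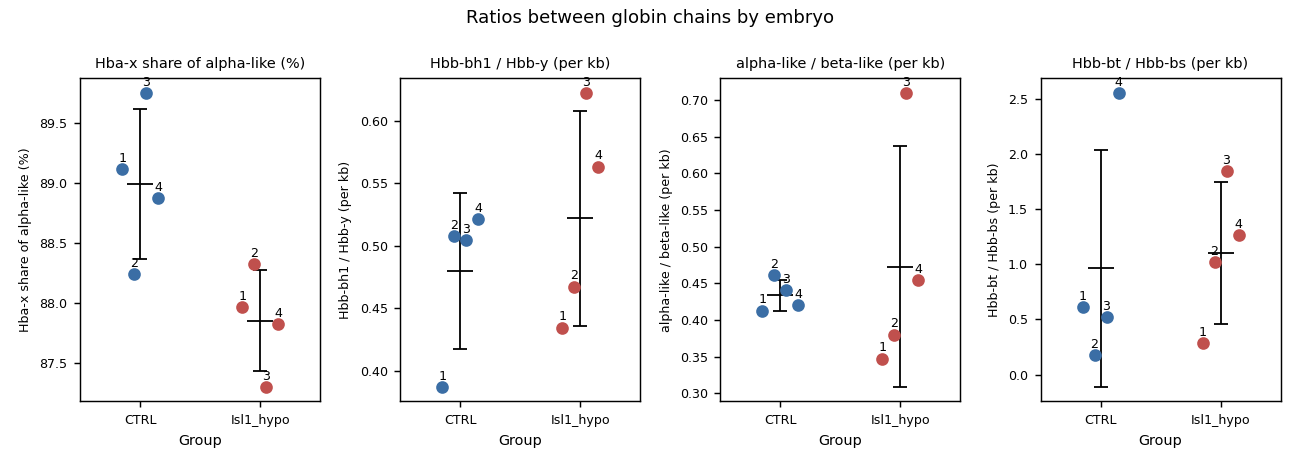
Hba-x share of alpha-like transcripts (percent), Hbb-bh1 to Hbb-y, alpha-like to beta-like and Hbb-bt to Hbb-bs ratios (each from counts per kilobase, linear axes that do not start at 0) by group, with replicate numbers, group mean and SD (n = 4). The groups overlap in all 4 panels, and the highest alpha-like to beta-like ratio, 0.709, belongs to Isl1_hypo 3.

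The adult beta genes were the members whose mix varied most. This comparison was added after the values were seen and is given as a description. The ratio of Hbb-bt to Hbb-bs per kilobase was 0.609, 0.176, 0.520 and 2.55 in CTRL 1 to 4 and 0.285, 1.02, 1.84 and 1.26 in Isl1_hypo 1 to 4. It ranged 14.5-fold over the 8 embryos, against 1.61-fold for Hbb-bh1 to Hbb-y and 2.04-fold for alpha-like to beta-like. The counts behind it were 220, 236, 412 and 737 for Hbb-bs and 132, 41, 211 and 1853 for Hbb-bt in CTRL, and 545 to 703 and 157 to 1278 in Isl1_hypo. Hbb-bt was 14.8% of the summed counts in CTRL 2 (Wilson 95% interval 11.1 to 19.5%) and 71.5% in CTRL 4 (69.8 to 73.2%). The intervals cover neither differences between embryos nor the assignment of reads between near-identical genes, and a part of read assignment in this ratio was not tested.

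Counted once per pair, globin took 0.205, 0.263, 0.450 and 1.15% of all counts in CTRL 1 to 4 and 1.80, 1.14, 2.32 and 1.47% in Isl1_hypo 1 to 4. The log2 difference was 1.99, a 3.99-fold ratio (exact permutation test, p = 0.0571, adjusted p = 0.133), and CTRL 4 lay just above Isl1_hypo 2. Without CTRL 4 the log2 difference was 2.49 (exact p = 0.0286, the smallest that 3 against 4 allows, adjusted p = 0.1).

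The other genes of the red cell were read beside the globins. Heme, the iron-bearing group of each globin chain, is made by a chain of enzymes that begins in red cells with Alas2. Of 11 genes of heme synthesis and iron import tested, 9 had a log2 fold change above 0 and 2 below, where 50.9% of all genes were above. None passed an adjusted p under 0.05, and the median was 0.38. At an unadjusted p under 0.05, 7 were higher and none lower (edgeR), against 5.69 and 6.17% of all genes. Alas2 was at 10.8, 10.4, 18.8 and 50.8 CPM in CTRL 1 to 4 and at 72.7, 44.7, 93.8 and 51.4 CPM in Isl1_hypo 1 to 4. Its log2 fold change was 1.53 (SE 0.46, adjusted p = 0.236). That of Slc25a37, the mitochondrial iron importer of red cells, was 1.38 (adjusted p = 0.0662), and that of Tfrc, the transferrin receptor, was -0.24 (adjusted p = 0.45). Most genes of this list work in every cell, while Alas2 is the red cell form of its enzyme.

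Of 13 red cell membrane, surface and related genes tested, all 13 were above 0, against 50.9% of all genes, with a median of 1.73. At an unadjusted p under 0.05, 11 were higher, against 5.69% of all genes (edgeR). Epb42, the membrane skeleton protein 4.2, rose by 2.28 (SE 0.31, adjusted p = 0.0172, edgeR), from 2.12 ± 0.445 CPM in CTRL to 10.4 ± 4.04 CPM in Isl1_hypo. It was the 1 gene of the list that passed, where 0.145% of all genes were called higher. Its adjusted p was 0.0694 to 0.0733 without CTRL 1, 2 or 3. Slc4a1, the band 3 anion exchanger, differed by 1.43 (adjusted p = 0.213) and Sptb, the beta-spectrin gene, by 0.16 (adjusted p = 0.788).

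Of 12 genes that regulate globin genes or assist their product, 11 were tested and Ahsp was not analysed here. A total of 4 lay above 0 and 7 below, where 50.9% of all genes were above. Their median was -0.14, and none passed an adjusted p under 0.05 (edgeR). At an unadjusted p under 0.05, 4 were higher and 1 lower, against 5.69 and 6.17% of all genes. The higher ones were Klf1, the activator of adult beta-globin, at 1.42 (adjusted p = 0.106), Gata1, the master factor of red cells, at 1.59 (0.312), Nfe2 at 1.21 (0.283) and Tal1 at 0.89 (0.201). The 1 that was lower was Zfpm1, the GATA1 partner FOG1, at -0.69 (adjusted p = 0.224). The repressors of embryonic globin genes Bcl11a, Sox6 and Zbtb7a had log2 fold changes of -0.14, -0.09 and -0.45 (adjusted p = 0.835, 0.819 and 0.487). Bcl11a, Sox6 and Zbtb7a are also used by cells other than red cells, and in bulk tissue their source was not measured. The cells behind the Zfpm1 counts were not measured either, so its lower value cannot be placed in red cells.

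**Figure D4:**
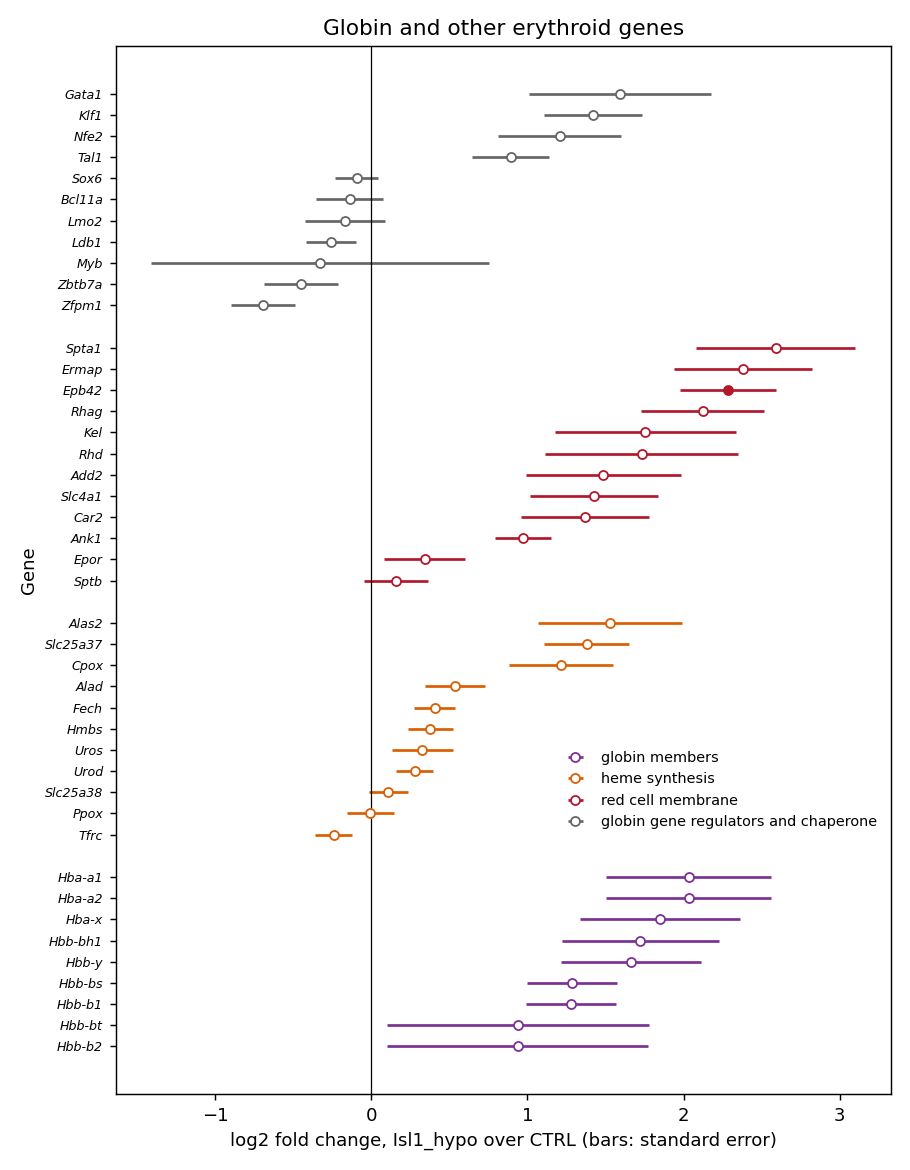
log2 fold change of Isl1_hypo over CTRL with its standard error for the 9 globin rows (purple), heme synthesis genes (orange), red cell membrane genes (red, 12 of 13 shown) and globin regulators (grey), with a filled point where the edgeR adjusted p is under 0.05. Epb42 is the only filled point, and the globin rows lie between 0.94 and 2.03.

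Among other globin family genes, Hbq1b (theta) lies within the alpha cluster. It had 10 to 90 counts in CTRL and 39 to 188 in Isl1_hypo, and it differed by 1.86 on the log2 scale (SE 0.64, edgeR adjusted p = 0.303). Mb, the myoglobin gene of muscle, stood at 42.4 ± 4.38 CPM in CTRL and 31.0 ± 8.26 in Isl1_hypo (log2 fold change -0.45, adjusted p = 0.342). Cygb, cytoglobin, was at 0.02. Hbb-bh2, Hbq1a, Ngb and Adgb reached at most 11, 2, 16 and 21 counts in any library and were removed by the filter.

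Globin was also set against the other red cell genes of the same embryo. The ratio of summed globin to the summed heme synthesis and membrane lists was 2.50, 2.89, 4.91 and 10.54 in CTRL 1 to 4 and 13.6, 9.86, 13.1 and 11.4 in Isl1_hypo 1 to 4. The log2 difference was 1.44 (exact permutation test, p = 0.0571, adjusted p = 0.133), with CTRL 4 above Isl1_hypo 2. Most heme enzymes are also made by other cells, so the ratio to the membrane list alone was added after seeing the data. It was 19.9, 23.9, 37.2 and 47.1 in CTRL 1 to 4 and 50.7, 43.0, 44.5 and 51.5 in Isl1_hypo 1 to 4, a log2 difference of 0.65 (exact p = 0.0857, adjusted p = 0.2). Not every gene of the membrane list moved with the globins. Sptb averaged 22.9 CPM in CTRL and 25.5 in Isl1_hypo, and Epor 8.20 and 10.4. The part of such genes in this ratio was not tested.

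The genes whose pattern over the 8 libraries was most like the embryonic globins were named by Pearson's r. It was taken between log2 CPM and the mean of Hba-x, Hbb-y and Hbb-bh1. Compared were 10735 genes with a mean of at least 5 CPM over the 8 libraries. Of the 5 with the highest r, 4 are given: Alas2 (0.991), Rhd (0.984), Slc4a1 (0.982) and Smpd3 (0.978). Smpd3 averaged 3.86 CPM in CTRL and 8.79 in Isl1_hypo, so it met the cut only through the hypomorphs. Among the members, Hbb-bh1 had 0.999, Hbb-y 0.992 and Hba-x 0.992, each being part of that mean, and Hba-a1 had 0.988. The adult beta genes followed less closely, with 0.934 for Hbb-bs and 0.817 for Hbb-bt. Tfrc ran the other way, at -0.899. These correlations describe 8 libraries that also differ by group, and carry no test.

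Libraries held 29748458 to 46678973 counts in CTRL and 18422245 to 33050298 in Isl1_hypo. As a check of the label, 8 myocardial markers summed to 38681 to 45267 CPM in CTRL and 39914 to 47512 in Isl1_hypo, with Actc1 the largest part (21021 CPM on average in CTRL). Of these markers 4 lay above 0 and 4 below, and none passed an adjusted p under 0.05 (edgeR). At an unadjusted p under 0.05 Myh7 (log2 fold change -0.49, adjusted p = 0.165, no overlap) and Myh6 (-0.31, adjusted p = 0.391) were lower and 0 were higher. Over all genes 6.17% were lower and 5.69% higher at that cut. Markers of other cells, some of which could come with the blood, moved as follows. The 5 megakaryocyte and platelet markers all lay above 0, against 50.9% of all genes (median log2 fold change 0.81, sums of 41.9 to 77.2 CPM in CTRL and 59.4 to 196 in Isl1_hypo). Of these 0 passed an adjusted p under 0.05, and 3 were higher at an unadjusted p under 0.05 (edgeR), against 5.69% of all genes. The leukocyte markers summed to 5.98 to 14.01 CPM in CTRL and 1.09 to 13.1 in Isl1_hypo. The defining liver genes were at or near 0, with at most 1 count of Alb and 12 of Afp in any library, and the liver and yolk sac list summed to 8.79 to 15.1 CPM in CTRL and 11.4 to 15.1 in Isl1_hypo. The endothelial markers summed to 539 to 658 CPM in CTRL and 407 to 533 in Isl1_hypo, so the sums did not overlap, by a narrow gap. Of the 5 markers 4 lay below 0, and none passed an adjusted p under 0.05 (edgeR). Pecam1 and Cdh5 were lower without overlap (adjusted p = 0.17 and 0.241), as were 4.44% of all genes. Y-linked genes summed to over 200 CPM in 1 CTRL and 3 Isl1_hypo libraries and to at most 0.336 CPM in the rest, and the part of embryo sex in the globin levels was not tested. As globin transcripts are short, it was also seen that 508 other genes of at most 800 bases had a median log2 fold change of 0.02. That median compares the groups and does not describe single libraries, whose length slopes ran from -0.108 to 0.119.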

How the data were processed

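RNA of 8 single-embryo OFT/RV samples was sequenced, 4 per group, and groups and replicate numbers were taken from the labels. The authors aligned reads with STAR to mm9 and counted exon reads per RefSeq transcript with HOMER on both strands. The deposited counts are whole numbers without normalization, and the deposited RPKM values are the same counts scaled by depth and transcript length in edgeR. The versions of STAR, HOMER, edgeR and DESeq2 that the authors used are not given in the sources used here. Columns of the authors' own DESeq2 comparison (mean signal, log2 fold change, its error, score and p-values) were not used.

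Of 31507 transcripts, the one with the highest mean count was kept for each of 20701 symbols. Total counts were 29748458 to 46678973 in CTRL and 18422245 to 33050298 in Isl1_hypo. After filterByExpr 13769 genes were tested with the quasi-likelihood test of edgeR 4.0.16 (R 4.3.3, TMM scaling, no covariates, biological coefficient of variation 26.4%), with Benjamini-Hochberg adjustment over all genes. SE is the size of the log2 fold change divided by the square root of F. CPM uses TMM-scaled library sizes and log2 CPM a prior count of 2. The fit was tested on simulated data. DESeq2 1.42.0, other scalings and filters, a length correction, a replicate block and leaving out each library were alternatives. The 7 mix values were compared with exact 2-sided permutation tests (Python 3.11.15, scipy 1.17.1).

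The table has no coordinates, so rows that repeat each other were found from their equal or nearly equal counts, and each such pair was counted once by the row with the higher mean. Same-numbered libraries did not deviate together (correlations -0.0209 to 0.0219), so numbers were not taken as pairs. Genes were named as the members, the listed red cell and marker genes, and the 5 genes most alike, of which 1 gene is not reported here. The members and lists were chosen with earlier results of these data known. Replicates are separate embryos, and n = 4 limits each test.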

Additional observations from a re-analysis of the deposited data

Results flagged for a closer look

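In 28 groups of 4 libraries examined for a library standing far from the other 3, 1 did: the Hbb-bh1 to Hbb-y ratio in CTRL 1, with a log2 ratio of -1.37 against -0.99 to -0.94 in CTRL 2 to 4. Without CTRL 1 the log2 difference of this ratio between the groups was 0.015, against 0.12 with it. Chance alone marks about 1 in 20 groups, which is 1.4 of 28. CTRL 1 was also the library with the steepest gain of expression with transcript length (slope 0.119 for each doubling). The transcripts of Hbb-bh1 and Hbb-y are nearly equal in length, at 605 and 614 bases. A part of length in the ratio was not tested.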

How the results depend on the processing

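All 9 globin rows kept a log2 fold change above 0 under all 15 alternatives. The number of genes past an adjusted p of 0.05 was 37 with edgeR, 319 with DESeq2 and 0 with the replicate block, and 4 to 48 when 1 library was left out. For globin rows it was 0 with edgeR (7 at an unadjusted p under 0.05), 2 with DESeq2, 0 with the replicate block and 0 to 7 when 1 library was left out, 7 being without CTRL 4. The log2 fold changes without a library ranged from 1.41 to 2.58 for Hba-x, 1.40 to 2.42 for Hbb-y, 1.42 to 2.54 for Hbb-bh1 and 0.55 to 2.79 for Hbb-bt. Without 1 library, the log2 odds difference of the embryonic share ranged from -0.23 to 0.029 and the alpha-like to beta-like difference from -0.15 to 0.20, and the sign of both turned without Isl1_hypo 3 (0.029 and -0.15). The range was 0.015 to 0.20 for the Hbb-bh1 to Hbb-y difference and 0.28 to 0.65 for the embryonic share of beta-like chains. The cause was not tested. For the mix, the replicate block leaves each difference as it is by construction, and total globin (1.99) had p = 0.125 by exact sign flips, the smallest they allow (adjusted p = 0.438). Under the block all 37 calls of the edgeR fit were lost, with Isl1 at an adjusted p of 0.0722 and Epb42 at 0.075, while same-numbered libraries did not pair. Isl1 passed 0.05 in each other alternative run. For the 7 mix values no adjusted p was under 0.05 in any alternative, and in this small design that says nothing about stability. Depth limits chiefly the adult beta genes, with 41 counts of Hbb-bt in CTRL 2.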
